A study of Bos taurus with 92 samples.

Results

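Transcripts of 4 histone variant genes, H2AZ1, H2AZ2, H3-3A and H2AJ, were followed on a 2-colour cDNA microarray in 44 bovine blastocysts, each measured singly, and in 2 samples of somatic cells. All 4 encode replication-independent histone variants, and probes were taken where the array's gene annotation gave exactly 1 of these symbols. That gave 5 probes of 8208: H2AZ1 (NCBI Gene ID 287016) had 2, referred to as probe 1 and probe 2, while H2AZ2 (613618), H3-3A (326601) and H2AJ (618489) had 1 each. All 5 were among the 7992 probes tested, and each had a value in all 46 samples. The samples were 15 blastocysts from nuclear transfer (NT, in which an oocyte receives the nucleus of a somatic cell), 15 fertilised in vitro (IVF), 14 from artificial insemination (AI) and 2 samples of the Donor Cells used for NT. The labels name no breed, embryo age, genotype or donor cell type. Of the NT embryos, 8 carry the prefix 2_ and 7 the prefix 3_, and 3 AI embryos carry the prefix H, with no explanation. Another 2 probes were annotated to H3-3B together with a second symbol and were not counted as members.

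Histones package DNA into nucleosomes. Replication-dependent histones are made mainly in S phase, from messages that mostly end in a stem-loop in place of a poly(A) tail, whereas replication-independent variants are made throughout the cell cycle from polyadenylated messages and can replace their counterparts outside S phase. H2A.Z, encoded by H2AZ1 and H2AZ2, sits in nucleosomes flanking active promoters and at enhancers, and loss of H2az1 is lethal in early mouse embryos. The H3 variant encoded by H3-3A is deposited at active genes and, in the fertilised mouse egg, into the paternal chromatin, and it also enters donor chromatin after nuclear transfer. H2AJ encodes a mammalian H2A variant that accumulates in senescent human cells.

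Values are log2 ratios of sample to a common reference RNA after each array was centred, so 0 marks the median probe and 1 log2 unit is a doubling. Each value averages adjacent duplicate spots and then the 2 arrays of a sample, 1 with the sample in Cy5 and 1 with it in Cy3. Ratios were read as Cy5 over Cy3, which is likely but was inferred from the opposite signs of swapped arrays and from embryo and fibroblast marker genes, so those markers are no independent check of direction. With the opposite reading every sign and every order given here would be reversed. The ratio scale permits comparison of a gene between samples, not of levels between genes. As deposited, the arrays were not centred: mean array medians per sample ran from -0.25 to 0.55 in NT, -1.11 to 0.50 in IVF and -0.75 to 0.23 in AI embryos. The 2 arrays of a sample correlated at r of 0.64 to 0.70 in NT, 0.56 to 0.76 in IVF and 0.55 to 0.73 in AI embryos but only 0.25 and 0.33 in Donor Cells. IVF embryos 11 and 1 correlated least with the mean of the other IVF embryos (r of 0.75 and 0.79). The 2 spots of a member probe differed by 0.065 to 0.12 on average. The labels give no hybridisation batch, so a batch cannot be told apart from a kind of embryo. Where nothing says that embryos came from separate crosses or sessions, p-values measure the spread between these samples.

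Trophectoderm and fibroblast marker genes separated the embryos from the Donor Cells. Of 25 trophectoderm probes, 13 were higher in NT, 15 in IVF and 13 in AI embryos than in Donor Cells, and 2 were lower in each. Of 13 fibroblast probes, 9 were lower and 1 was higher in each kind of embryo. The mean of these 13 probes lay between -2.54 and -1.95 in the embryos, against 0.64 to 0.70 in Donor Cells. Other embryo lists were not mainly higher in embryos, but only 3 of 10 genes were tested in each. Of 4 inner cell mass probes (KLF4, SALL4 and STAT3), 0, 1 and 0 were higher and 3, 2 and 2 lower in NT, IVF and AI embryos than in Donor Cells. POU5F1, NANOG and SOX2 had no tested probe. Of 5 primitive endoderm probes (GATA6, FN1 and LAMB1), 0, 1 and 1 were higher and 1, 3 and 1 lower. Of all tested probes 16.7%, 16.1% and 17.3% were higher, and 2506, 2489 and 2636 of 7992 were called in either direction.

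By both probes, H2AZ1 transcripts of NT embryos were about 2-fold above those of IVF embryos, and those of IVF embryos about 2-fold below those of AI embryos. On probe 1 the lowest, median and highest values were 0.28, 0.52 and 0.77 in NT embryos, -1.23, -0.39 and -0.11 in IVF embryos and 0.17, 0.66 and 0.76 in AI embryos, while the 2 Donor Cells samples had -1.20 and -1.63. Every NT and AI embryo thus lay above every IVF embryo. NT exceeded IVF embryos by 0.99 ± 0.091 (SE; 1.99-fold; limma adjusted p = 6.01e-11, rank 3 of 7992 by p). IVF embryos differed from AI embryos by -1.02 ± 0.093 (2.03-fold lower, limma adjusted p = 2.43e-11). In bulk RNA of a blastocyst, fewer cells with the transcript and less transcript per cell cannot be told apart.

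Probe 2 of H2AZ1, from a different cDNA entry, gave the same ordering with more spread. Its lowest, median and highest values were -0.22, 0.36 and 0.59 in NT embryos, -1.54, -0.62 and -0.24 in IVF embryos and -0.18, 0.33 and 0.72 in AI embryos, against -1.17 and -1.56 in the Donor Cells samples. The groups again did not overlap, but the margin was narrow: NT embryo 3_4 stood at -0.22 and IVF embryo 2 at -0.24. NT exceeded IVF embryos by 1.02 ± 0.12 (2.02-fold, limma adjusted p = 2.12e-08), and IVF embryos differed from AI embryos by -1.05 ± 0.12 (2.07-fold lower, limma adjusted p = 1.04e-08). Of all tested probes, 0.225% were higher in NT than in IVF embryos without overlap and 0.375% were lower in IVF than in AI embryos without overlap. Single dye orientations and uncentred arrays overlapped more: in Cy5 alone 15 and 13 of 15 NT embryos exceeded all IVF embryos on probes 1 and 2, in Cy3 alone 14 and 14, and as deposited 15 and 13. Likewise 15 and 7 of 15 IVF embryos lay below all AI embryos in Cy5 alone, 10 and 10 in Cy3 alone, and 13 and 9 as deposited.

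H2AZ2, the second H2A.Z gene, moved in the same directions with a smaller difference. Its lowest, median and highest values were -1.08, -0.53 and -0.22 in NT embryos, -1.62, -1.34 and -0.46 in IVF embryos and -1.01, -0.54 and 0.039 in AI embryos, against -1.02 and -1.32 in the Donor Cells samples. IVF embryos 11 and 12, at -0.46 and -0.65, fell inside the NT range, and the other 13 lay below every NT embryo. NT exceeded IVF embryos by 0.71 ± 0.11 (1.64-fold, limma adjusted p = 4.18e-06), with 15 of 15 NT embryos above the IVF mean. IVF embryos differed from AI embryos by -0.74 ± 0.11 (1.67-fold lower, limma adjusted p = 1.66e-06), with 14 of 15 below the AI mean. H2AZ1 and H2AZ2 code for nearly identical proteins, and the part of cross-hybridisation between their cDNAs was not tested.

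**Figure D1:**
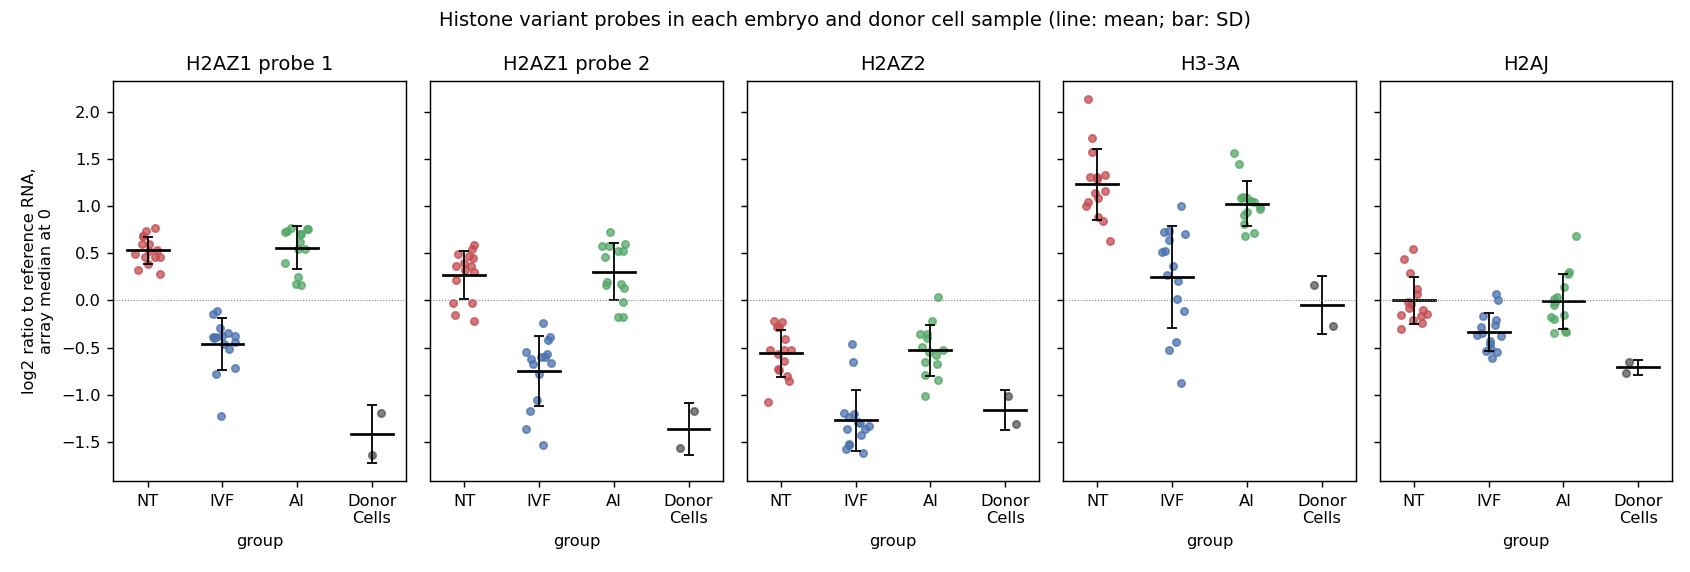
Log2 ratio to the reference RNA (y axis, array median at 0) of the 5 probes in 15 NT, 15 IVF and 14 AI embryos and 2 Donor Cells samples; each point is a sample, the line the mean and the bar the SD. On both H2AZ1 panels the IVF points lie below all NT and AI points, while on the H2AZ2, H3-3A and H2AJ panels the kinds of embryo overlap.

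H3-3A was also higher in NT embryos than in the IVF group, and of the 3 kinds the IVF embryos were the most scattered. Its lowest, median and highest values were 0.63, 1.16 and 2.13 in NT embryos, -0.88, 0.36 and 1.00 in IVF embryos and 0.68, 1.02 and 1.56 in AI embryos, against 0.16 and -0.27 in the Donor Cells samples. The SD was 0.37 in NT embryos, 0.54 in IVF embryos and 0.24 in AI embryos, and 11 of 15 NT embryos exceeded every IVF embryo. NT exceeded IVF embryos by 0.98 ± 0.15 (1.97-fold, limma adjusted p = 3.64e-06). IVF embryos differed from AI embryos by -0.78 ± 0.15 (1.71-fold lower, limma adjusted p = 0.000119), with 15 of 15 below the AI mean. Without IVF embryos 1 and 11, a choice made after seeing the data, the differences were 0.84 and -0.64 and both stayed past the threshold. The call of IVF against AI embryos held under 15 of 16 alternative settings, with a smallest drop of 0.42 (highest limma adjusted p = 0.105). The current gene table lists H3-3B as a synonym of the gene it calls H3-3A, so the naming of this probe rests on that annotation.

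H2AJ showed the smallest difference of the 4 genes between these kinds of embryo. Its lowest, median and highest values were -0.31, -0.078 and 0.55 in NT embryos, -0.61, -0.37 and 0.064 in IVF embryos and -0.35, -0.038 and 0.68 in AI embryos, against -0.77 and -0.65 in the Donor Cells samples. The kinds of embryo overlapped, with 5 of 15 NT embryos above every IVF embryo. NT exceeded IVF embryos by 0.34 ± 0.098 (1.26-fold, limma adjusted p = 0.00907), and IVF embryos differed from AI embryos by -0.32 ± 0.10 (1.25-fold lower, limma adjusted p = 0.0126). The NT call was lost when only the NT embryos labelled 2_ entered (limma adjusted p = 0.131). The call of IVF against AI embryos held under 12 of 16 alternative settings. Uncentred arrays (limma adjusted p = 0.219) and Cy3 alone (0.253) were among those where it was lost.

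All 5 member probes thus rose in NT against IVF embryos, where 12% of all tested probes were called higher and 23% were called in either direction. All 5 fell in IVF against AI embryos, where 13.2% were called lower and 26.4% in either direction. These comparisons share the IVF embryos. The 5 probes stand for 4 genes. The members were chosen with earlier results of these data known, so these shares are no test of them. MACROH2A1 (0.34 ± 0.16 and -0.41 ± 0.16) and CENPA (-0.019 ± 0.096 and -0.14 ± 0.098), also replication-independent variants, were called in neither comparison. As deposited the median of all probes was higher by 0.37 in NT than in IVF embryos, and the member differences were then 0.72 to 1.40, all called. Trophectoderm markers moved as well: 1 of 25 probes was higher and 8 were lower in NT than in IVF embryos, with a list mean of 1.09 to 1.82 in NT and 1.47 to 1.95 in IVF embryos. As deposited 5 of the 25 were higher and 1 was lower, where 2675 of 7992 tested probes were called higher and 85 lower. The median difference of the 25 probes was then 0.14, against 0.37 over all tested probes. On centred arrays, of 4 inner cell mass probes 2 were higher, those of STAT3 (1.11) and KLF4 (0.69), and 2 were lower, both of SALL4 (-0.66 and -0.51). Of 5 primitive endoderm probes 2 were higher, both of FN1 (0.83 and 0.75), and 1 was lower, that of LAMB1 (-0.44). The part of these markers in the histone differences was not tested.

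**Figure D2:**
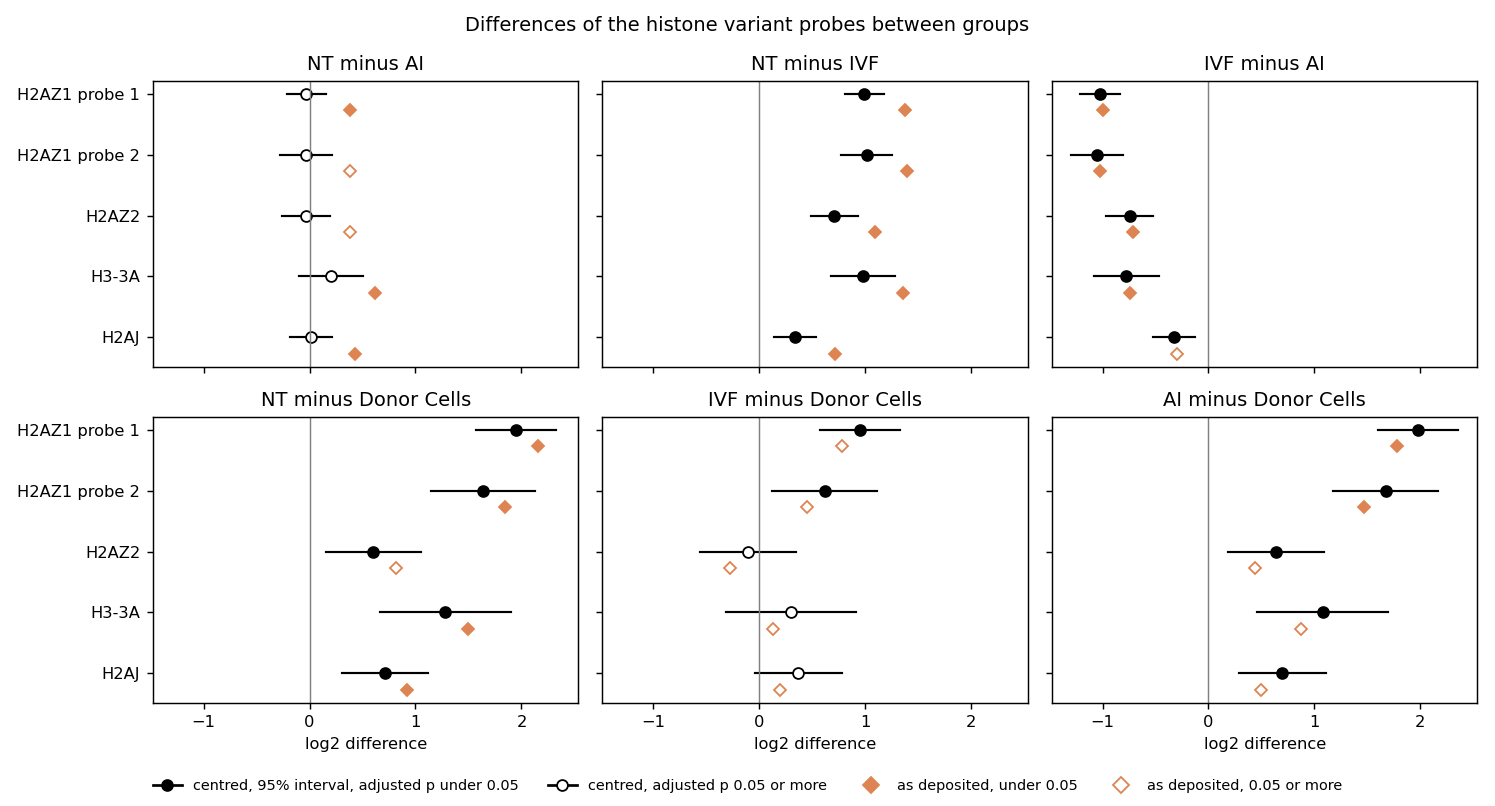
Log2 difference (x axis) of the 5 probes in 6 comparisons; circles with 95% intervals are centred arrays and diamonds arrays as deposited, filled where the limma adjusted p was under 0.05. All circles are filled and right of 0 for NT minus IVF, filled and left of 0 for IVF minus AI, and open near 0 for NT minus AI.

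None of the 5 probes passed the threshold between NT and AI embryos, where 7.48% of all tested probes were called and 0 of 5 member probes had an unadjusted p under 0.05. The differences were -0.030 (95% interval -0.22 to 0.16) and -0.035 (-0.28 to 0.21) for H2AZ1 probes 1 and 2, and -0.032 (-0.26 to 0.19) for H2AZ2. For H3-3A the difference was 0.20 (-0.10 to 0.51), and for H2AJ it was 0.013 (-0.19 to 0.21). The intervals leave out a 2-fold difference in either direction for each of the 5 probes on centred arrays. This comparison depended on centring: as deposited the median of all probes was 0.44 higher in NT than in AI embryos, the member differences were 0.38 to 0.62, and 3 of 5 were called.

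Against the Donor Cells, H2AZ1 had the largest difference of the 4 genes in every kind of embryo. On probe 1 it was higher by 1.95 ± 0.19 in NT (3.85-fold), 0.95 ± 0.19 in IVF (1.93-fold) and 1.98 ± 0.19 in AI embryos (3.93-fold), with limma adjusted p of 6.29e-12, 6.87e-05 and 4.49e-12. On probe 2 the differences were 1.64 ± 0.25 in NT, 0.62 ± 0.25 in IVF and 1.67 ± 0.25 in AI embryos, with limma adjusted p of 4.77e-07, 0.0485 and 3.15e-07. Every NT and AI embryo exceeded both Donor Cells samples on both probes, whereas 1 of the Donor Cells samples lay inside the IVF range on each.

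The other 3 genes were higher in NT and AI embryos than in Donor Cells. H3-3A exceeded them by 1.28 ± 0.31 in NT (limma adjusted p = 0.000838) and 1.08 ± 0.31 in AI embryos (0.00488). H2AJ exceeded them by 0.71 ± 0.20 in NT and 0.70 ± 0.20 in AI embryos (limma adjusted p = 0.00498 and 0.00579), and H2AZ2 by 0.60 ± 0.22 in NT and 0.64 ± 0.23 in AI embryos (0.0344 and 0.0247). In IVF embryos none of the 3 passed: H2AZ2 differed by -0.11 (95% interval -0.56 to 0.35), H3-3A by 0.30 (-0.31 to 0.92) and H2AJ by 0.37 (-0.035 to 0.78). On H2AJ all 15 IVF embryos exceeded both Donor Cells samples, as 12.4% of all tested probes did without overlap. In Cy3 alone all 15 did so too. In Cy5 alone 3 lay above both Donor Cells samples and 9 below both, and as deposited 9 lay above and 4 below.

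In total 5 of 5 member probes were called higher in NT embryos than in Donor Cells (16.7% of all tested probes were), 2 of 5 in IVF embryos (16.1%) and 5 of 5 in AI embryos (17.3%). Groups that did not overlap with the embryos above both Donor Cells samples made up 15.1% of all tested probes for NT, 12.4% for IVF and 15.3% for AI. These 3 comparisons share the same 2 Donor Cells samples. Since the members were chosen with earlier results of these data known, the shares are no test of them. Without Donor Cells sample 8 or without sample 9, a fit in which the remaining sample is assumed to vary like the other groups, 3, 1 and 3 probes were called for NT, IVF and AI embryos. Sample 9 was the lower of the pair for H2AZ1, H2AZ2 and H3-3A. In Cy5 alone 2, 0 and 2 were called. The H2AZ1 calls on both probes held under all 16 alternatives for NT and all 15 for AI embryos, whereas those for IVF embryos held under 13 of 15 on probe 1 and 9 of 15 on probe 2.

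**Figure D3:**
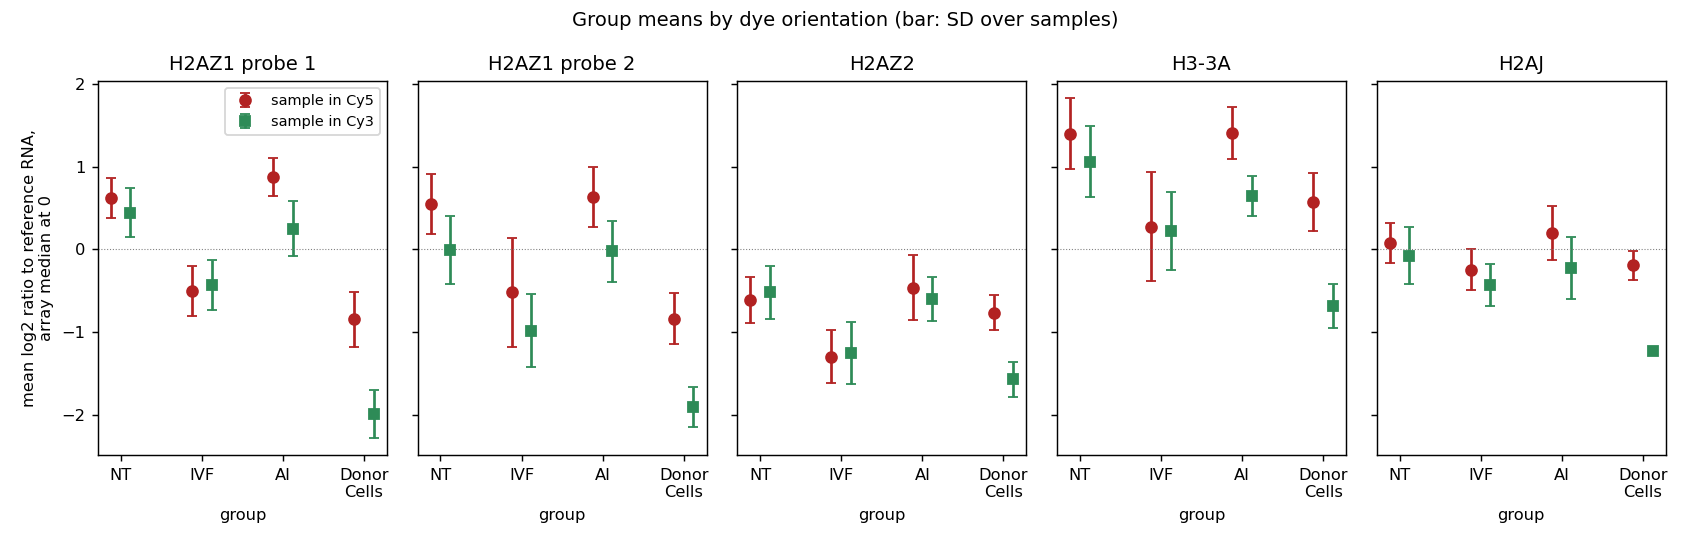
Mean log2 ratio to the reference RNA (y axis, array median at 0; bars, SD over samples) of each probe in NT, IVF and AI embryos and Donor Cells, with the sample in Cy5 (circles) or in Cy3 (squares). The orientations lie close together in NT and IVF embryos for H2AZ2 and far apart in the Donor Cells, where H3-3A averaged 0.57 in Cy5 and -0.68 in Cy3.

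The dye orientation mattered most in the Donor Cells. Their mean was -0.84 with the sample in Cy5 and -1.99 with it in Cy3 on H2AZ1 probe 1, and -0.19 and -1.23 on H2AJ. In NT embryos the corresponding means were 0.62 and 0.44 on H2AZ1 probe 1 and 0.076 and -0.074 on H2AJ, while H2AZ1 probe 2 had 0.55 and -0.0084 and H3-3A 1.40 and 1.06. The orientations differed in AI embryos too, with 0.87 in Cy5 and 0.25 in Cy3 on H2AZ1 probe 1.

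Ordered by mean, H2AZ1 stood highest in AI and NT embryos, which did not differ beyond their spread, then in IVF embryos, and lowest in Donor Cells, with each step past the threshold on both probes. H2AZ2 was highest in AI and NT embryos, and IVF embryos (-1.27) and Donor Cells (-1.17) stood lower and did not differ beyond their spread. H3-3A and H2AJ were highest in NT and AI embryos and lower in IVF embryos, and Donor Cells stood lowest by the mean of both orientations. In Cy5 alone IVF embryos stood below Donor Cells, at 0.27 against 0.57 on H3-3A and -0.24 against -0.19 on H2AJ. The step from IVF embryos to Donor Cells missed the threshold for both genes. On H3-3A these groups overlapped. On H2AJ they did not by the mean of both orientations, with -0.61 the lowest IVF value and -0.65 the highest in Donor Cells, but they overlapped in Cy5 alone.

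Within a kind of embryo few correlations between members passed the threshold. Of 21 computed over embryos of 1 kind, 13 were called as deposited and 0 in Cy5 alone. On centred arrays 1 passed the threshold after adjustment, that of the 2 H2AZ1 probes in AI embryos (r = 0.75, permutation adjusted p = 0.0468; rho = 0.70, adjusted p = 0.106; r = 0.61 without the 2 embryos farthest from the median of probe 1; n = 14). The same pair gave r = 0.46 in NT embryos (permutation adjusted p = 0.398) and 0.29 in IVF embryos (0.702), and without the 2 embryos farthest from the median of probe 1 it was 0.65 in NT and -0.36 in IVF embryos. IVF embryo 7 stood out, with -0.11 on probe 1 and -1.54 on probe 2, a gap of 1.42 against an average gap of 0.28 ± 0.39 (SD) in IVF embryos. That gap rested mainly on 1 array, since probe 2 read -2.51 with the sample in Cy5 and -0.565 with it in Cy3, while probe 1 read -0.11 on both. H2AZ1 and H3-3A ran opposite in AI embryos (r = -0.68, permutation adjusted p = 0.0539; rho = -0.67, adjusted p = 0.106; n = 14), short of the threshold, and r was 0.17 as deposited. In IVF embryos they gave r = 0.44 (permutation adjusted p = 0.398), which was 0.0059 without the 2 embryos farthest from the H2AZ1 median.

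**Figure D4:**
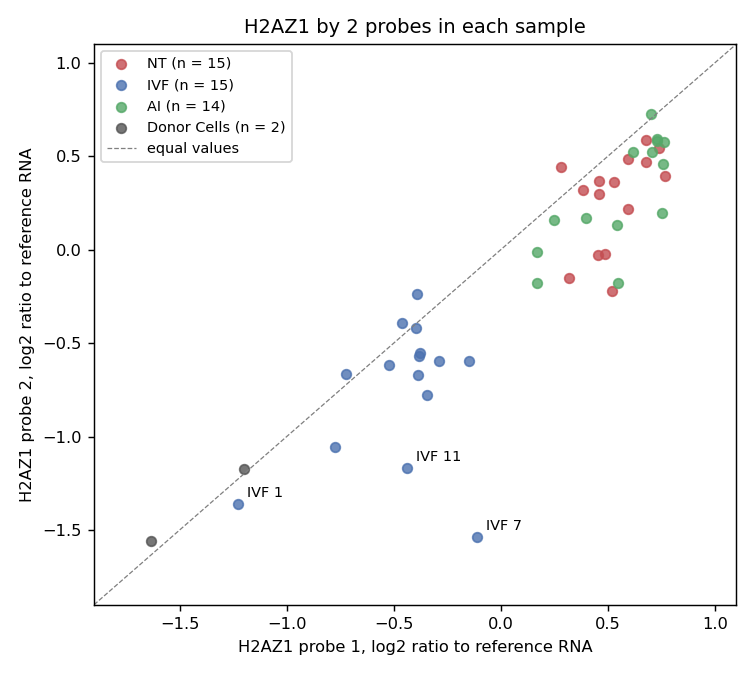
Log2 ratio to the reference RNA on H2AZ1 probe 1 (x axis) and probe 2 (y axis) in each sample, with the dashed line marking equal values. IVF embryos and Donor Cells lie below 0 on both axes, Donor Cells sample 9 lies lowest on both (-1.63 and -1.56), and IVF embryo 7 (-0.11 and -1.54) lies farthest from the line.

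Neither label prefix separated the members. With NT embryos as 2 groups in the model, 0 probes of the whole array were called between the 8 labelled 2_ and the 7 labelled 3_, and the member differences ran from -0.22 to 0.043. Between the 3 AI embryos labelled H and the other 11, 41 probes were called and no member was, the largest member difference being 0.36 on H2AZ1 probe 2 (limma adjusted p = 0.594). Both fits were added after seeing the data.

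The genes whose profile over the 44 embryos was most like that of H2AZ1, by Pearson r among 4237 other genes, were HSP90AA1 (0.84), COX7A2 (0.84), SF3B6 (0.84), BCAS2 (0.83) and NASP (0.83). For H2AZ2 they were COX7A2 (0.77), NDUFA2 (0.76), HES1 (0.76), HSP90AA1 (0.76) and LAMP2 (0.74). For H3-3A they were LZTR1, NDEL1, HNRNPH3, HIGD1A and PSMC2 (0.82 to 0.83), and for H2AJ EMP1, TIMM8A, TMEM132A, TMSB4X and PSENEN (0.61 to 0.64). These r share the difference between kinds and the arrays: within kinds of embryo they were 0.16 for COX7A2 and 0.57 for SF3B6 with H2AZ1, and 0.58 to 0.70 for the 5 genes named with H3-3A. H2AZ1 and H2AZ2 had r = 0.73 over all embryos and 0.056 within kinds.

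Another 7 histone genes had a probe. Of all tested probes 23% were called between NT and IVF embryos on centred arrays, 12% of them higher in NT. Of the 7 only H2AC20, a replication-dependent H2A gene, passed, at 0.13 ± 0.24 in NT and -0.15 ± 0.18 in IVF embryos (SD, n = 15 each). The difference was 0.28 ± 0.084 (SE, limma adjusted p = 0.0115). That call was lost with the sample in Cy5 only and with only the NT embryos labelled 2_. As deposited 4 of the 7 were called higher. The median difference of the 7 probes was 0.28, against -0.014 over all tested probes, on centred arrays and 0.66, against 0.37, as deposited. Those that did not pass were the replication-independent variants MACROH2A1 (0.34 ± 0.16) and CENPA, the centromeric H3 (-0.019 ± 0.096), the replication-dependent H2BC21 (0.38 ± 0.37), the gene annotated only as H2B (0.24 ± 0.20), and the linker histones H1-2 (0.62 ± 0.27) and H1-3 (-0.13 ± 0.17).

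None of the 7 passed between IVF and AI embryos, where 4 had an unadjusted p under 0.05: H2BC21 at -0.97 ± 0.38, H1-2 at -0.62 ± 0.27, MACROH2A1 at -0.41 ± 0.16 and H2AC20 at -0.20 ± 0.085 (limma adjusted p of 0.0507 to 0.0835). After quantile normalisation, after equalising the median absolute deviation of the arrays, or in Cy3 alone, 2 of the 7 were called lower. None passed between NT and AI embryos either, and none had an unadjusted p under 0.05 there. Of all tested probes 26.4% were called between IVF and AI and 7.48% between NT and AI embryos. That a probe of a replication-dependent gene missed the threshold does not show that its transcript was level. Messages without a poly(A) tail can be poorly copied where amplification starts from oligo-dT, and the part of this in these values was not tested.

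**Figure D5:**
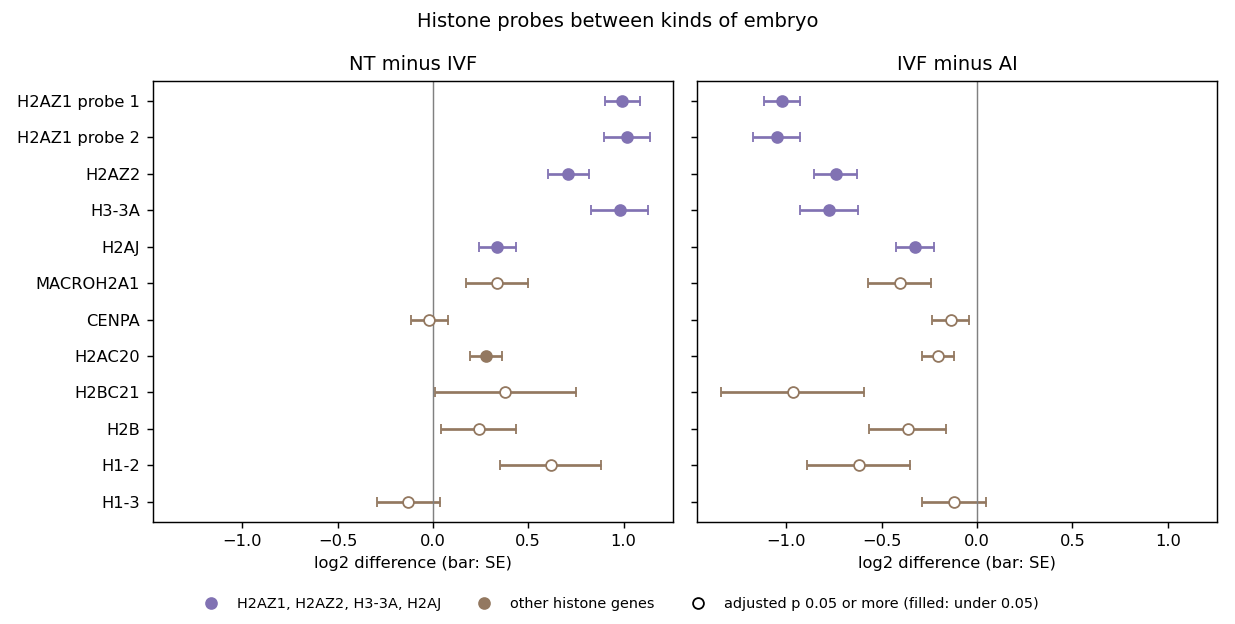
Log2 difference (x axis; bars, SE) of the 5 member probes and the 7 other histone probes for NT minus IVF and IVF minus AI; filled points had a limma adjusted p under 0.05. All member points are filled, and of the others only H2AC20 is, for NT minus IVF.

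Against Donor Cells the other histone genes split. H2BC21 was lower, at differences of -2.71 ± 0.76 in NT, -3.08 ± 0.76 in IVF and -2.12 ± 0.77 in AI embryos, and CENPA was higher by 0.54 ± 0.20, 0.56 ± 0.20 and 0.70 ± 0.20 in the same kinds (limma adjusted p of 0.00128 to 0.0307 over these 6 values). In IVF embryos H1-2 (-1.94 ± 0.55) and MACROH2A1 (-0.97 ± 0.33) were also lower. These calls depended on which Donor Cells samples entered: those of H2BC21 and H1-2 were lost without sample 9, and those of CENPA and MACROH2A1 without either one. On H1-2 the Donor Cells samples were far apart, with an SD of 1.71 around a mean of 1.18. In Cy5 alone CENPA changed sign in NT (-0.066) and IVF embryos (-0.019).

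Among 54 genes listed as histone chaperones and exchange factors, 25 were tested with 30 probes. Between NT and IVF embryos 12% of all tested probes were called higher and 23% in either direction. Of the 30 chaperone probes 7 rose and 3 fell, with a median of 0.034. The highest of those that rose was NASP, a chaperone of H3 and H4, at 1.84 ± 0.33 in NT and 0.41 ± 0.67 in IVF embryos (SD, n = 15 each; difference 1.43 ± 0.17 SE, limma adjusted p = 2.12e-08). NAP1L4, a nucleosome assembly protein for H2A and H2B, rose by 1.04 ± 0.16 and 0.53 ± 0.15 on its 2 probes, SET, a histone chaperone and inhibitor of histone acetylation, by 1.07 ± 0.18 and 0.59 ± 0.16, and NCL, nucleolin, by 0.74 ± 0.14. SUPT16H, a subunit of the FACT complex, fell by 0.43 ± 0.12, KAT5, the acetyltransferase of the TIP60 complex, by 0.33 ± 0.11, and 1 probe of RBBP4, a histone-binding subunit of CAF-1, by 0.32 ± 0.12. As deposited 14 of these 30 probes rose and 0 fell, and KAT5 (0.056) and RBBP4 (0.066) changed sign.

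Between IVF and AI embryos 4 of the 30 probes rose and 9 fell, with a median of -0.0099 against 0.044 over all tested probes. Of all tested probes 13.2% were called lower and 26.4% in either direction. NASP fell by 1.33 ± 0.17 (limma adjusted p = 1.00e-07), NAP1L4 by 1.16 ± 0.16 and 0.62 ± 0.15, and SET by 0.87 ± 0.16 and 0.85 ± 0.18. DMAP1, a subunit of the complexes that insert H2A.Z, fell by 0.74 ± 0.12 in IVF and by 0.49 ± 0.12 in NT embryos, each against AI embryos. TRRAP, a scaffold of the TIP60 complex, rose by 0.59 ± 0.15, INO80B and INO80, of a remodeller that acts on H2A.Z nucleosomes, by 1.17 ± 0.35 and 0.65 ± 0.20, and DAXX, a chaperone of the H3-3A product, by 0.75 ± 0.26. The DAXX call was lost under 9 of 16 alternative settings. Between NT and AI embryos DMAP1 and INO80 (0.61 ± 0.20, limma adjusted p = 0.0471) were the only 2 of 30 called on centred arrays. Of all tested probes 7.48% were called. As deposited 13 of the 30 were higher and 0 lower, against 3161 and 33 of 7992 tested probes. The DMAP1 call was then lost (-0.081), and in Cy3 alone 0 of the 30 were called.

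Against Donor Cells 10, 8 and 10 of the 30 chaperone probes were higher in NT, IVF and AI embryos, and 2, 1 and 1 were lower. Of all tested probes 16.7%, 16.1% and 17.3% were higher. The counts of chaperone probes higher were 10, 2 and 7 as deposited and 7, 3 and 7 in Cy5 alone. As deposited 1255, 668 and 758 of 7992 tested probes were higher. The lower genes were DAXX (-1.64 ± 0.54 in NT and -2.04 ± 0.54 in AI embryos) and DMAP1 (-0.62 ± 0.24 in NT and -0.87 ± 0.24 in IVF embryos). On DAXX the 2 Donor Cells samples were far apart, with an SD of 1.01 around a mean of 1.06. NASP was higher by 3.78 ± 0.35 in NT, 2.34 ± 0.35 in IVF and 3.67 ± 0.35 in AI embryos, and MCM2, a helicase subunit that also binds H3 and H4, by 2.82 ± 0.39, 3.09 ± 0.39 and 3.24 ± 0.40. ASF1A, which passes H3 and H4 to other chaperones, was higher by 1.74 ± 0.32, 1.00 ± 0.32 and 1.75 ± 0.32, the IVF call being lost on uncentred arrays, in Cy5 alone and without Donor Cells sample 8.

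Of all tested probes on centred arrays, 23% were called between NT and IVF, 26.4% between IVF and AI and 7.48% between NT and AI embryos. Replication and S phase genes were set beside those shares. Of 11 probes of 10 genes, 1 rose and 1 fell between NT and IVF embryos: RPA3, of the single-strand binding complex, by 0.47 ± 0.16 and CCNE1, cyclin E1, at -0.57 ± 0.20. Between IVF and AI embryos RFC5, of the clamp loader, rose by 0.41 ± 0.15 and RPA3 fell by 0.86 ± 0.16, and none of the 11 was called by limma between NT and AI embryos (2 had an unadjusted p under 0.05, CASP8AP2 and RPA3). As deposited 6 of the 11 were called higher and 0 lower in NT than in IVF embryos, and likewise 6 and 0 in NT than in AI embryos, with median differences of 0.60 and 0.46. Against Donor Cells 7, 7 and 6 of the 11 were higher in NT, IVF and AI embryos, where 16.7%, 16.1% and 17.3% of all tested probes were. In NT embryos 1 was lower, that of RPA1 (-1.06 ± 0.38), and in IVF and AI embryos 0 were. Among the higher was the helicase subunit MCM4 by 3.46 ± 0.28, 3.77 ± 0.28 and 3.68 ± 0.28. These transcripts accompany dividing cells, and their part in the member differences against Donor Cells was not tested.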

How the data were processed

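Per spot, the authors deposited a log2 ratio between the dyes. Per the labels, sample RNA had 3 rounds of linear amplification and the reference RNA 2. Scanner software, background correction, normalisation and the direction of the ratio are not given in the sources used here, and no intensities were used, so signal over background could not be examined; precision is limited by the number of arrays and samples.

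A fill value of 16.61, in 2657 cells, was set to missing. The sign was reversed where the reference carried Cy5, each of the 92 arrays was centred on its median, duplicate spots were averaged, and a sample's value is the mean of both orientations. Probes with values in both Donor Cells samples and in at least 50% of the NT, IVF and AI embryos were tested, which removed 216. All 46 samples entered 1 group-means model (limma 3.58.1, R 4.3.3, eBayes, 2-sided), with Benjamini-Hochberg adjustment over 7992 probes and a threshold of 0.05. The procedure was tested on simulated data. Correlations used 100000 permutations, adjusted over 21 relations.

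The members, the gene lists and the settings were chosen with earlier results of these data known. Every member probe is named, all other histone genes, and the 5 genes of highest r with each member. Genes named as called from the chaperone and replication lists are among the up to 4 of smallest p per direction and comparison. The array's gene annotation is an old one, and sequences and coordinates were not used here. Alternatives covered scaling, dye orientation, spot, filter, model and left-out samples.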

Additional observations from a re-analysis of the deposited data

How the results depend on the processing

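Member calls between NT and IVF embryos were 5 of 5 probes in every alternative on probes except with only the NT embryos labelled 2_ (4), and 4 of 4 genes when probes were averaged. Between IVF and AI embryos 4 or 5 held except under the replicate block. AI and IVF embryos share 7 embryo numbers, but deviations of same-numbered embryos correlated at -0.059 to 0.039, which shows no pairing over all probes. A shared factor limited to few probes was not tested. With the number as a replicate block 3 of 5 probes were called, and 4 on the same embryos without it. Over all member values, 74 of 75 alternatives for NT minus IVF and 75 of 80 for IVF minus AI kept direction and call.

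Counts of called members moved as follows. As deposited they were 3 for NT minus AI, 0 for IVF minus Donor Cells and 2 for AI minus Donor Cells. With the sample in Cy5 only they were 2, 0 and 2 for NT, IVF and AI minus Donor Cells, and with Cy3 only 4 for IVF. For IVF minus Donor Cells the first spot, averaging into genes, and fitting only the groups compared each gave 1. Without 1 Donor Cells sample the counts were 3 to 3 for NT, 1 to 1 for IVF and 3 to 3 for AI. Correlations called were 13 as deposited and 0 with Cy5 only.

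The member differences that changed sign were uncalled, but 4 values of the other named probes that were called on centred arrays changed sign too. For NT minus AI, as deposited gave 0.38 for H2AZ2 and for both H2AZ1 probes (0.38 and 0.38, probe 1 called at limma adjusted p = 0.0438). Scaling to a common median absolute deviation gave 0.0052, the first spot 0.0021 and leaving out AI embryos labelled H 0.020 on H2AZ1 probe 1, and the last gave 0.042 on probe 2. Cy5 only gave -0.12 for H2AJ and -0.0086 for H3-3A. Cy3 only gave 0.083 for H2AZ2, 0.19 for H2AZ1 probe 1 and 0.016 for probe 2. NT embryos labelled 2_ gave -0.075 for H2AJ, and those labelled 3_ 0.084 for H2AZ2 and 0.027 for H2AZ1 probe 1. For IVF minus Donor Cells, H2AZ2 became 0.14 with quantile normalisation, 0.32 with Cy3 only and -0.26 to 0.043 without 1 Donor Cells sample, and Cy5 only gave -0.053 for H2AJ and -0.30 for H3-3A. KAT5 (0.056) and RBBP4 (0.066) in NT minus IVF reversed as deposited, and CENPA against Donor Cells reversed with Cy5 only in NT (-0.066) and IVF (-0.019). The correlation of H2AZ1 and H3-3A in AI embryos became 0.17 as deposited, and that of the H2AZ1 probes in IVF embryos -0.078 with Cy5 only. The causes were not tested.

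Array centring changed counts of calls over all probes, and low agreement of dye orientations limits the 2 Donor Cells samples.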
